A study of Mus musculus with 18 samples.

Results

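The genes described here encode the enzymes that burn glucose: 17 of glycolysis with its regulator Pfkfb3 and lactate dehydrogenase, 4 of the pentose phosphate pathway, and 17 of the pyruvate dehydrogenase complex, the tricarboxylic acid (TCA) cycle and the enzymes that take isocitrate, malate and citrate through the cytosol. They were chosen by gene symbol, and all 38 of 38 were found among the 12205 genes of the authors' deposited fold table. The 18 libraries came from primary mouse astrocytes carrying the R132H point mutation in both copies of Eif2b5, the catalytic subunit of eIF2B, used as a model of vanishing white matter disease. Cells were untreated or received TNFα (20 ng/ml) plus IL-1β (0.25 ng/ml), cytokines that astrocytes meet in inflamed brain, for the last 24 hr or 48 hr of 120 hr in culture. Each condition was read by RNA-seq and by Ribo-seq, which sequences the mRNA fragments held inside ribosomes, giving 6 groups of 3 libraries (batches A, B and C). All 6 groups carry the mutation. The wild-type (WT) folds in the same table are the authors' own comparison, and the WT libraries were not analysed here.

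The authors' deposited table gives, for each gene, the log2 ratio (fold) between treated and untreated cells in mRNA, in ribosome-protected fragments (RPF, the footprints) and in ribosome density (RD, close to footprints per mRNA), at both times and in both genotypes. A log2 fold of 0.5 is a ratio of 1.41, and a log2 fold of 1 is a ratio of 2. The table holds a pooled fold per gene and comparison with no value per library, so no gene was tested, no fold carries an error, and the depth is unknown. The 24 hr and 48 hr folds share their untreated libraries and are set side by side without a test. In bulk cultures, fewer cells of a type and less RNA per cell cannot be told apart.

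Glycolysis splits glucose into pyruvate in the cytosol, and lactate dehydrogenase turns pyruvate into lactate and back. The pentose phosphate pathway branches off after hexokinase: its oxidative enzymes make NADPH for antioxidant defence and lipid synthesis, and its non-oxidative enzymes, transketolase and transaldolase, return sugars to glycolysis. Pyruvate dehydrogenase carries pyruvate into the mitochondrial TCA cycle. Astrocytes are known as glycolytic cells that release lactate, and inflammatory activation of glia is known to raise glycolysis further.

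Forms of the same enzyme lay far apart at phosphofructokinase and at lactate dehydrogenase, so the promoters of a high and a low form of each are shown. They are RefSeq windows on GRCm38.p6, from 250 bases before to 50 bases after the annotated start, written 5′ to 3′ on the gene's strand, and the start used in these astrocytes is not known. Capitals mark the core of the hypoxia response element, ACGTG or GCGTG on either strand, and the E-box CACGTG, which itself holds ACGTG on both strands. Pfkl lies at chr10:78009758-78010057 (minus strand), Pfkp at chr13:6648722-6649021 (minus), Ldha at chr7:46845554-46845853 (plus) and Ldhb at chr6:142507908-142508207 (minus).
Pfkl: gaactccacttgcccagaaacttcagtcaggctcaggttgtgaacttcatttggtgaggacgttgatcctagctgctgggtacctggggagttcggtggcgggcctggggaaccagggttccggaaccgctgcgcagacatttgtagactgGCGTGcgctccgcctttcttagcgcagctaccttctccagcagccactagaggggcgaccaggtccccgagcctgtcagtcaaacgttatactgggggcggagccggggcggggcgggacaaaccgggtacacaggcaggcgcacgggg
Pfkp: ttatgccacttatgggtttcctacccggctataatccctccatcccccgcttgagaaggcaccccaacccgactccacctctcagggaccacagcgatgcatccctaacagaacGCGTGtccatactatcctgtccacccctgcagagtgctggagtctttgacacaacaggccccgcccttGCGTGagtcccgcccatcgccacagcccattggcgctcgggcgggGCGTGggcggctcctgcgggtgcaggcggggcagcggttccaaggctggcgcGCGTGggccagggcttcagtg
Ldha: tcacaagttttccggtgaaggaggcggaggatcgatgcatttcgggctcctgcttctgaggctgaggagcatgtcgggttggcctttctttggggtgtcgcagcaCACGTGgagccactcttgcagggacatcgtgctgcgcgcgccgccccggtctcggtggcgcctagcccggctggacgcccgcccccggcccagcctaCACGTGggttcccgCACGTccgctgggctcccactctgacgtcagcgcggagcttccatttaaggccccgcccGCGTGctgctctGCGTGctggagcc
Ldhb: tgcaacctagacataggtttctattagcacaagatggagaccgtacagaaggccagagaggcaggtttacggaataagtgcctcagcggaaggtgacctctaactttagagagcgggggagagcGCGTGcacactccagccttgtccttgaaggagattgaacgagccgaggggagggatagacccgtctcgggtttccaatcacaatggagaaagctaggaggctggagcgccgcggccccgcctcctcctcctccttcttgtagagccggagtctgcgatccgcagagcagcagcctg
The Ldha window held 2 E-boxes and further hypoxia cores, the Ldhb and Pfkl windows held 1 GCGTG each, and the Pfkp window held 4 GCGTG. Either core was present in 64.2% of the 9368 promoters that matched a gene of the fold table, in 11 of 17 glycolysis promoters, in 4 of 4 of the pentose phosphate pathway and in 11 of 16 of the pyruvate dehydrogenase and TCA group, in which Idh3a had no entry. The E-box was present in 10.3% of all these promoters and in 2 of 17 glycolysis promoters, those of Ldha and Pfkm. Taken apart, ACGTG was present in 41.2% of glycolysis promoters and 25.9% of all, and GCGTG in 41.2% and 52.9%. A match of letters is a description only.

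In the mutant, glycolysis and pentose phosphate mRNAs lay mostly above 0 after cytokines and TCA mRNAs mostly below. The glycolysis genes had a median mRNA fold of 0.29 at 24 hr (interval over the members 0.14 to 0.37) and 0.41 at 48 hr (0.22 to 0.67), with 13 of 17 above 0 at both times. The 4 pentose phosphate genes had medians of 0.83 (range -0.01 to 1.20) and 0.94 (0.31 to 1.33). The pyruvate dehydrogenase and TCA genes had medians of -0.23 (-0.45 to -0.03) and -0.19 (-0.48 to -0.03), with 14 of 17 below 0 at both times. Over all genes the medians were 0.03 and 0.04. The glycolysis medians were 0.19 and 0.20 after correction for the GC content of the transcripts.

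Among all 38 enzymes, 7 were at or above 0.5 in mRNA at 24 hr, where 15.5% of all genes were, and 5 were at or below -0.5, where 16.7% were. At 48 hr, 9 reached 0.5 and 6 reached -0.5, against 19.7% and 17.6% of all genes. A fold of 1 or more was seen in 3 members at 24 hr and 4 at 48 hr (7.73% and 8.96% of all genes), and a fold of -1 or less in 2 members at each time (7.27% and 8.24%). Counted over the whole set, the enzymes thus moved past these folds about as often as other genes, and the pathways went in different directions.

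**Figure D1:**
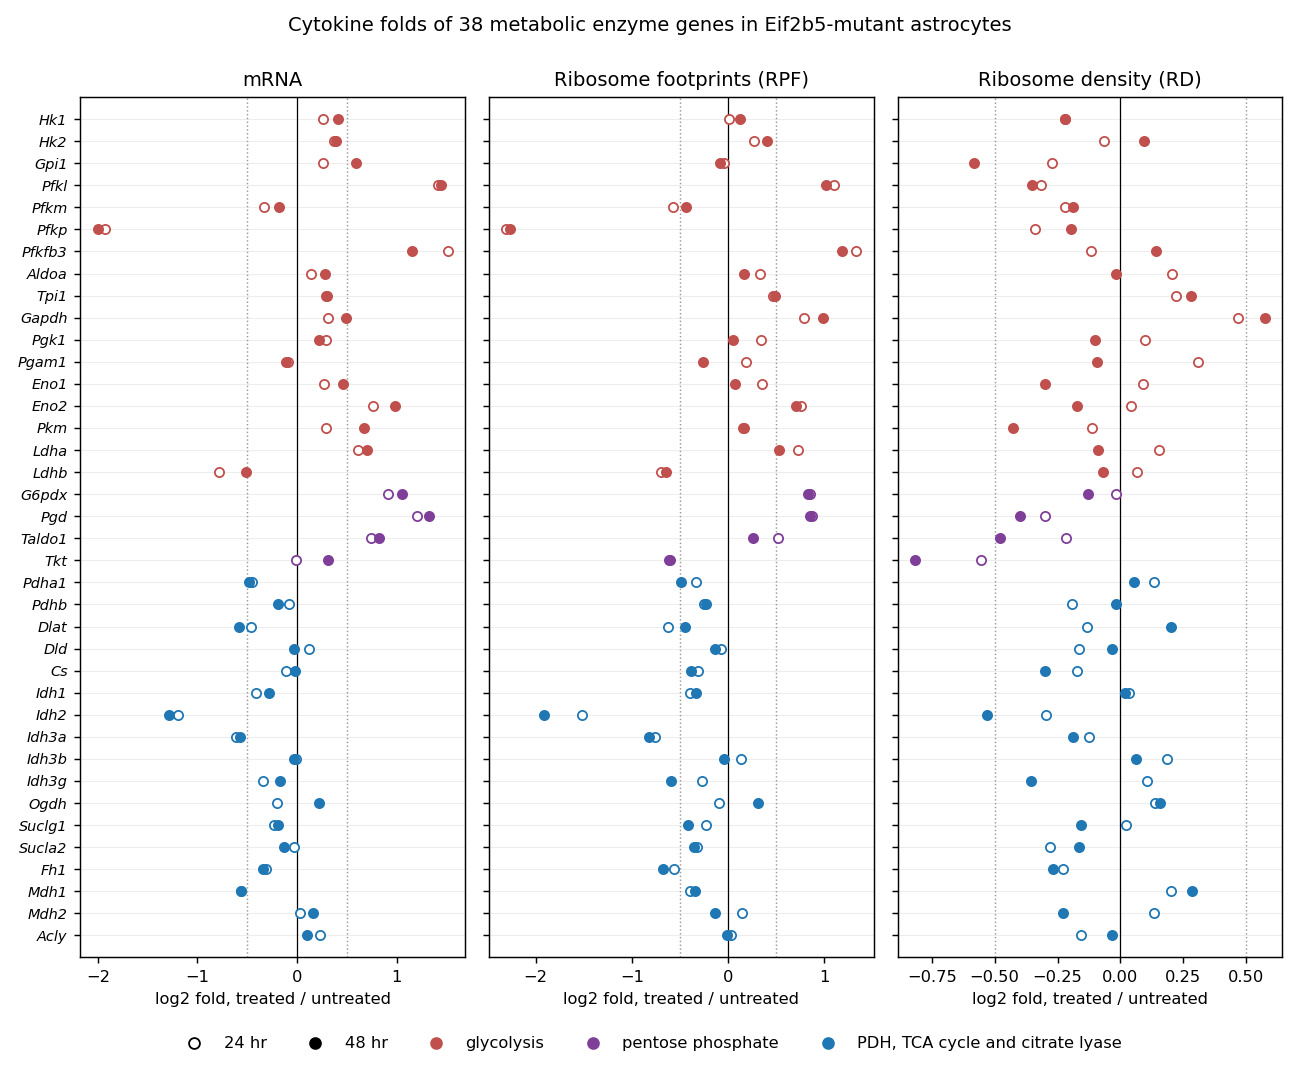
Log2 fold of treated over untreated Eif2b5-mutant astrocytes (x axes) for each of the 38 enzyme genes (rows, in pathway order) in mRNA, footprints and ribosome density, from the authors' deposited table; open circles are 24 hr, filled circles 48 hr, and dotted lines mark -0.5 and 0.5. Pfkl and Pfkfb3 stand above 1 and Pfkp near -2 in mRNA and footprints, the blue TCA genes lie mostly left of 0, and in ribosome density Tkt lies farthest left and Gapdh farthest right.

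At the entry to glycolysis, the hexokinases, which trap glucose as its phosphate, were slightly high. Hk1, the form of most brain cells, had mutant mRNA folds of 0.26 and 0.41 at 24 hr and 48 hr and footprint folds of 0.01 and 0.12, by the authors' deposited table. For Hk2, the inducible form, the authors' deposited table gave mRNA folds of 0.37 and 0.39 and footprint folds of 0.27 and 0.40. Gpi1, the isomerase that makes the fructose phosphate, had mRNA folds of 0.27 and 0.59 but footprint folds of -0.04 and -0.08 by the authors' deposited table. Its footprints were level while its mRNA was higher, and its RD was -0.27 and -0.58 in the authors' deposited table.

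Phosphofructokinase, the committed step, showed its 3 subunit genes far apart. Pfkl, the liver type (chromosome 10, 77986947 to 78010083, GRCm38), had mRNA folds of 1.42 and 1.45 and footprint folds of 1.10 and 1.02 by the authors' deposited table. Pfkp, the platelet type (chromosome 13, 6579768 to 6648777), stood at -1.93 and -2.00 in mRNA and -2.30 and -2.27 in footprints in the authors' deposited table, the lowest of the 38 genes in all 4 columns. Between them, Pfkm, the muscle type, had -0.33 and -0.18 in mRNA and -0.57 and -0.44 in footprints in the authors' deposited table. The mRNA fold of Pfkl exceeded that of Pfkp by 3.35 at 24 hr and 3.45 at 48 hr, and the footprint fold by 3.40 and 3.29. The RD folds of the pair differed by 0.02 and -0.15, so the contrast lay in the mRNA.

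Pfkfb3 makes the strongest allosteric activator of phosphofructokinase and is known as a switch for glycolysis in astrocytes, whereas neurons keep their own level of it low. The authors' deposited table put its mRNA at 1.51 and 1.16 and its footprints at 1.33 and 1.18, high at both times and in both readouts.

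The middle of glycolysis stayed within 0.5 of 0 in mRNA, and footprints were above mRNA for several of its enzymes. Aldoa, the main aldolase, had mRNA folds of 0.14 and 0.28 and footprint folds of 0.33 and 0.17 by the authors' deposited table. Tpi1, triose phosphate isomerase, had 0.29 and 0.31 in mRNA and 0.47 and 0.49 in footprints in the authors' deposited table. Gapdh, the dehydrogenase that forms NADH and a common loading control, had 0.31 and 0.49 in mRNA but 0.79 and 0.99 in footprints, again in the authors' deposited table. Its RD of 0.47 and 0.58 in the authors' deposited table was the highest of the 38 genes at both times. Pgk1, the phosphoglycerate kinase that makes ATP, had 0.29 and 0.22 in mRNA and 0.34 and 0.05 in footprints in the authors' deposited table. The mutase Pgam1 stayed near 0 in mRNA, at -0.09 and -0.11, with footprints at 0.18 and -0.26 in the authors' deposited table.

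Lower down, Eno2, the enolase known as neuron-specific, lay above the widespread form Eno1. The authors' deposited table gave Eno2 mRNA folds of 0.76 and 0.98 and footprint folds of 0.76 and 0.71, against 0.27 and 0.46 and then 0.35 and 0.07 for Eno1. Pkm, pyruvate kinase, had mRNA folds of 0.29 and 0.67 and footprint folds of 0.16 and 0.17 by the authors' deposited table. Its mRNA was higher at 48 hr than at 24 hr while its footprints were level, and the gene-level folds do not separate its splice forms.

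Lactate dehydrogenase also split by subunit. Ldha, whose subunit is known to favour lactate formation (chromosome 7, 46841475 to 46855627), had mRNA folds of 0.62 and 0.70 and footprint folds of 0.73 and 0.53 by the authors' deposited table. Ldhb, whose subunit is known to favour lactate use (chromosome 6, 142490249 to 142507957), had -0.78 and -0.51 in mRNA and -0.70 and -0.64 in footprints in the authors' deposited table. The Ldha fold exceeded the Ldhb fold by 1.40 and 1.21 in mRNA and by 1.42 and 1.17 in footprints. RD folds of both genes lay between -0.09 and 0.15 by the authors' deposited table.

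**Figure D2:**
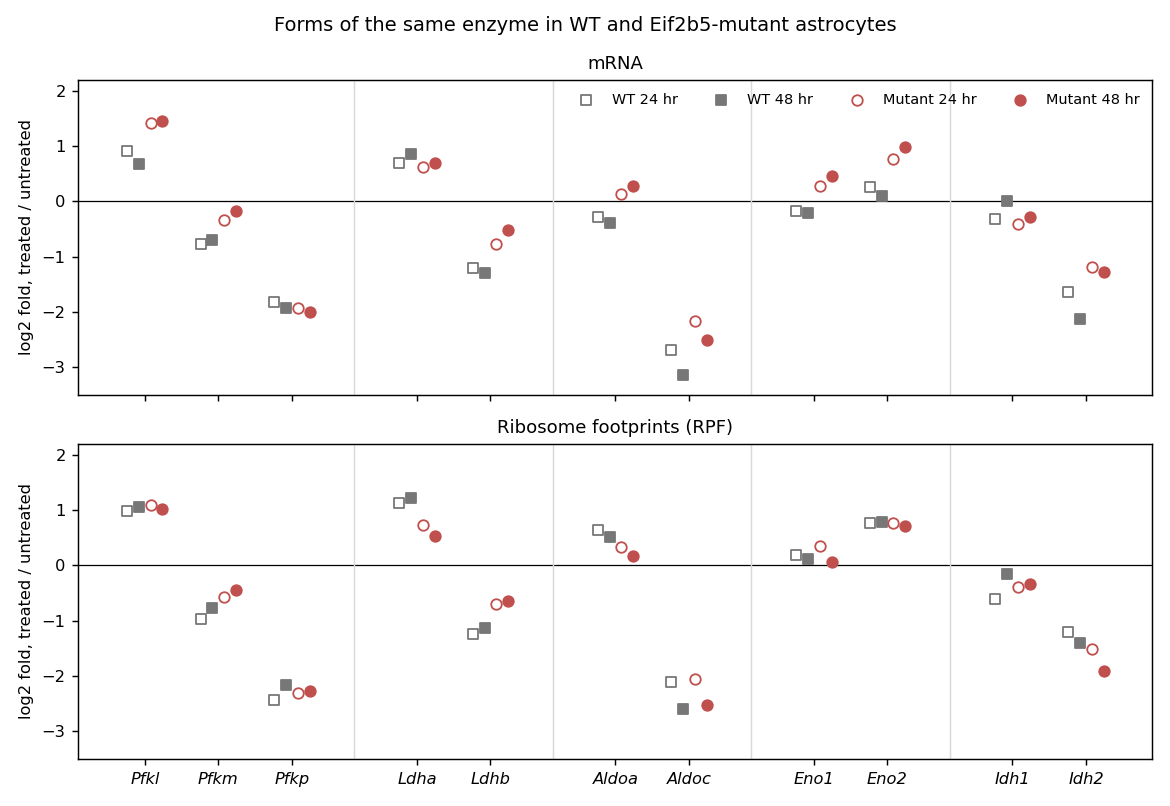
Log2 fold of treated over untreated cells (y axes) in mRNA (top) and footprints (bottom) for forms of the same enzyme, from the authors' deposited table; squares are WT, circles mutant, open symbols 24 hr and filled symbols 48 hr. Pfkl lies above 0 and Pfkp near -2 in both genotypes, Ldha lies above 0 and Ldhb below it, and Aldoc lies at or below -2 while Aldoa stays within 0.65 of 0.

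The same isozyme contrasts were present in the WT mRNA and footprint folds. In WT RD, Pfkl exceeded Pfkp by 0.62 at 24 hr and 0.56 at 48 hr, and Ldha exceeded Ldhb by 0.48 and 0.23. The authors' deposited table gave WT mRNA folds of 0.91 and 0.67 for Pfkl and -1.83 and -1.92 for Pfkp, and of 0.70 and 0.85 for Ldha and -1.21 and -1.29 for Ldhb. The Ldha fold exceeded the Ldhb fold in WT footprints by 2.36 at both times. That gap was wider than the mutant gaps of 1.42 and 1.17, since Ldha footprints were higher in the WT, at 1.13 and 1.22, and Ldhb footprints lower, at -1.23 and -1.14, in the authors' deposited table. Whether the gaps differ between genotypes was not tested. WT Pfkfb3 stood at 1.56 and 1.35 in mRNA in the authors' deposited table, near its mutant folds.

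In the pentose phosphate pathway, the oxidative enzymes were high and transketolase was not. G6pdx, glucose phosphate dehydrogenase and the gatekeeper of the pathway, had mRNA folds of 0.91 and 1.05 and footprint folds of 0.85 and 0.83 by the authors' deposited table. Pgd, the second NADPH-forming step, had 1.20 and 1.33 in mRNA and 0.87 and 0.85 in footprints in the authors' deposited table. Taldo1, transaldolase, had 0.75 and 0.83 in mRNA but 0.52 and 0.26 in footprints in the authors' deposited table. For Tkt, transketolase (chromosome 14, 30548359 to 30574720), the authors' deposited table gave mRNA folds of -0.01 and 0.31 and footprint folds of -0.60 and -0.61. Its RD of -0.56 and -0.82 in the authors' deposited table was the lowest of the 38 genes at both times.

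Of the pyruvate dehydrogenase complex, Pdha1 and Dlat had the lower folds and Pdhb and Dld lay nearer 0. Pdha1, the catalytic subunit of pyruvate dehydrogenase that kinases switch off, had mRNA folds of -0.45 and -0.48 and footprint folds of -0.34 and -0.49 by the authors' deposited table. Dlat, the acetyltransferase core, stood at -0.47 and -0.58 in mRNA and -0.63 and -0.45 in footprints in the authors' deposited table. Pdhb, the partner of Pdha1, and Dld, the dehydrogenase shared with other complexes, lay between -0.25 and 0.13 in mRNA and footprints in the authors' deposited table.

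Among the isocitrate dehydrogenase genes, Idh2 and Idh3a had the lowest folds in mRNA and footprints. Idh2, the mitochondrial NADPH-forming enzyme (chromosome 7, 80094846 to 80115392), had mRNA folds of -1.19 and -1.28 and footprint folds of -1.52 and -1.91 by the authors' deposited table, the lowest of the 17 genes of this group in all 4 columns. Its cytosolic counterpart Idh1 stood at -0.41 and -0.28 in mRNA and -0.39 and -0.33 in footprints in the authors' deposited table. Idh3a, the catalytic subunit of the NAD-dependent enzyme, had -0.61 and -0.57 in mRNA and -0.76 and -0.82 in footprints in the authors' deposited table. Its regulatory partner subunits were nearer 0 in mRNA, with Idh3b at -0.01 and -0.03 and Idh3g at -0.34 and -0.17 in the authors' deposited table. Idh3g footprints were at -0.27 and -0.59 and Idh3b footprints at 0.14 and -0.04 in the authors' deposited table.

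The remaining cycle enzymes were mostly a little below 0. Cs, citrate synthase at the head of the cycle, had footprint folds of -0.31 and -0.39 with mRNA folds of -0.11 and -0.02 by the authors' deposited table. Fh1, fumarase, had -0.31 and -0.34 in mRNA and -0.56 and -0.68 in footprints in the authors' deposited table. Suclg1 and Sucla2, subunits of succinyl-CoA ligase, lay between -0.23 and -0.03 in mRNA and between -0.42 and -0.23 in footprints in the authors' deposited table. Ogdh, the oxoglutarate dehydrogenase, went from -0.20 at 24 hr to 0.23 at 48 hr in mRNA and from -0.10 to 0.31 in footprints in the authors' deposited table. The cytosolic malate dehydrogenase Mdh1 had mRNA folds of -0.57 and -0.56, and the mitochondrial Mdh2 had 0.03 and 0.16, in the authors' deposited table. Acly, which cleaves exported citrate for lipid synthesis, had 0.23 and 0.10 in mRNA and 0.04 and -0.01 in footprints in the authors' deposited table.

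Footprints of the pathways followed the mRNA in direction. Median footprint folds in the mutant at 24 hr and 48 hr were 0.33 (0.01 to 0.73) and 0.17 (-0.08 to 0.53) for glycolysis, and 0.69 (-0.60 to 0.87) and 0.55 (-0.61 to 0.85) for the pentose phosphate genes. The pyruvate dehydrogenase and TCA genes had -0.31 (-0.39 to -0.10) and -0.35 (-0.49 to -0.14). A footprint fold of 0.5 or more was seen in 8 of the 38 at 24 hr (15.8% of all genes) and a fold of -0.5 or less in 8 (17.1%). The counts at 48 hr were 7 and 7 (15.2% and 17.3% of all genes). At both times 2 were at or above 1 (7.32% and 7.43% of all genes), Pfkl and Pfkfb3, and 2 at or below -1 (7.9% and 8.29%), Pfkp and Idh2.

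Ribosome density moved less than mRNA for these enzymes. At 24 hr none of the 38 was at or above 0.5 (4.69% of all genes) and 1, Tkt, was at or below -0.5 (4.42%). At 48 hr 1, Gapdh, was at or above 0.5 (6.58%) and 3, Tkt, Gpi1 and Idh2, were at or below -0.5 (7.66%). The latter count was 5 when RD was replaced by the difference of the footprint and mRNA folds, and 2 after GC correction. No member reached 1 or -1, which 0.606% and 1.1% of all genes did at 24 hr and 0.762% and 1.24% at 48 hr. The median RD of the pentose phosphate genes was -0.26 at 24 hr (range -0.56 to -0.02) and -0.44 at 48 hr (-0.82 to -0.13), or -0.27 and -0.48 when centred on the median of all genes. After GC correction the medians were -0.24 and -0.38. All 4 pentose phosphate genes were below 0 at both times, as were 21 of the 38 members at 24 hr and 28 at 48 hr. The share of all genes with an RD fold below 0 is not given here. The glycolysis medians were 0.04 (-0.22 to 0.15) and -0.10 (-0.22 to -0.02), and the pyruvate dehydrogenase and TCA medians -0.13 (-0.17 to 0.13) and -0.03 (-0.23 to 0.05), the latter -0.19 after GC correction.

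The mutant mRNA folds of the glycolysis and pentose phosphate genes were mostly above the WT folds. The median mutant-minus-WT difference of the mRNA folds was 0.37 at 24 hr (0.07 to 0.44) and 0.60 at 48 hr (-0.03 to 0.72) for glycolysis, with the mutant higher for 14 and 12 of 17 genes. For the pentose phosphate genes it was 0.30 (range -0.02 to 0.76) and 0.66 (0.02 to 1.48), and for the pyruvate dehydrogenase and TCA genes -0.04 (-0.10 to 0.11) and -0.10 (-0.26 to 0.25). Centred on the median of all genes, the differences were 0.36 and 0.64 for glycolysis and 0.30 and 0.70 for the pentose phosphate genes. For the pyruvate dehydrogenase and TCA genes the centred values were -0.04 and -0.07. The share of all genes with a higher mutant mRNA fold is not given here. Of the 38, 5 had an mRNA difference at or above 0.5 at 24 hr (12.1% of all genes) and 14 at 48 hr (20.7%). None was at or below -0.5, where 2.18% and 6.64% of all genes were. After GC correction, the count at or above 0.5 was 1 at 24 hr, Tkt, and 5 at 48 hr, Tkt, Taldo1, Ldhb, Eno2 and Gpi1. The matching shares of all genes after this correction were not computed, so these counts have no background to be set against. In footprints the median differences, not centred, were 0.07 and -0.08 for glycolysis, -0.09 and -0.24 for the pentose phosphate genes and -0.03 and -0.25 for the pyruvate dehydrogenase and TCA genes. The medians were thus nearer 0 in footprints than in mRNA for glycolysis and the pentose phosphate genes, but not for the pyruvate dehydrogenase and TCA genes at 48 hr.

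The mRNA differences moved with the GC content of the transcript. Across all 11991 genes with both values the rank correlation (Spearman) of the mRNA difference with GC content was 0.68 at 24 hr and 0.77 at 48 hr, and across the 38 members it was 0.86 and 0.84. For the footprint difference it was -0.05 and -0.08 over all genes, and for the RD difference -0.59 and -0.70. The mutant RD fold itself had -0.16 and -0.51 over all genes. Genes are not independent replicates, and all points come from the same libraries, so these values describe the table. The median GC content was 53.9% for glycolysis, 53.8% for the pentose phosphate genes, 47.7% for the pyruvate dehydrogenase and TCA genes and 50.3% for all genes. After correction for GC content the median mRNA difference was 0.10 and 0.16 for glycolysis, 0.15 and 0.40 for the pentose phosphate genes and 0.05 and 0.11 for the pyruvate dehydrogenase and TCA genes, for which it changed sign. The part of GC content in the genotype difference was not tested.

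**Figure D3:**
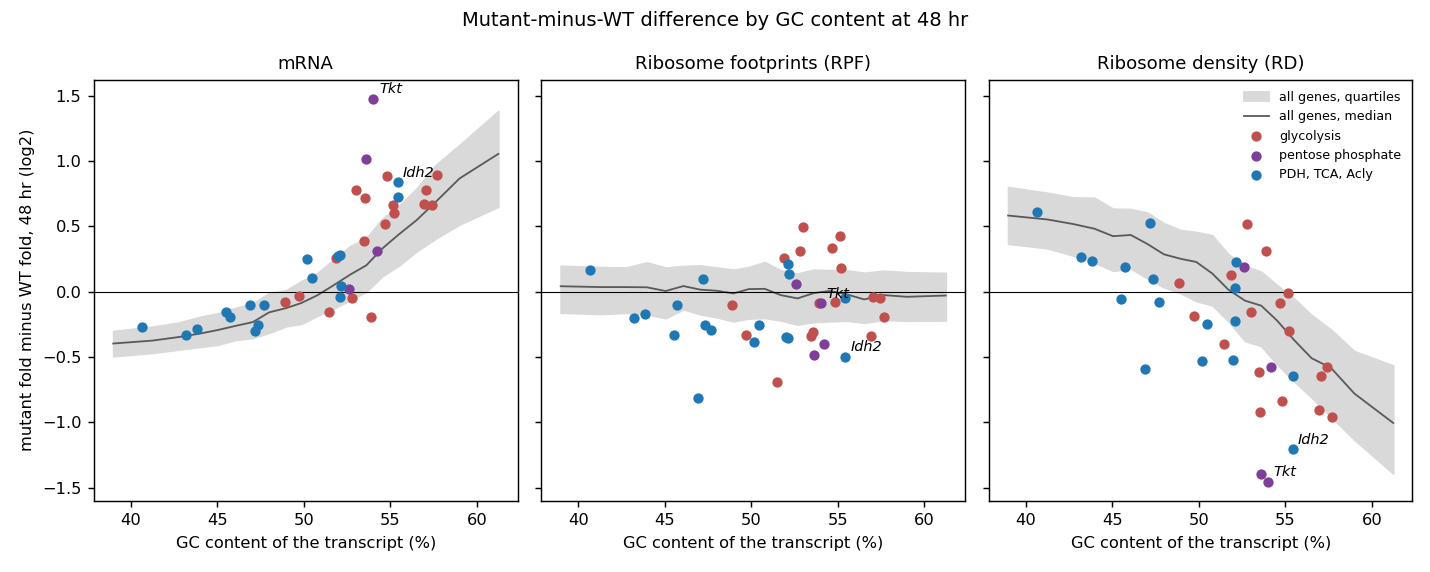
Mutant fold minus WT fold at 48 hr (y axes, log2) against the GC content of each gene's transcript (x axes, percent) in mRNA, footprints and ribosome density; dots are the 38 enzyme genes, the grey line is the median and the band the quartiles of all genes in 20 bins of GC content. The members rise with GC content along the grey line in mRNA and fall along it in ribosome density, with Tkt and the next pentose phosphate gene, Taldo1, above the band in mRNA and below it in ribosome density.

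Transketolase and transaldolase showed the largest genotype differences of the 38 genes in mRNA at both times and in RD at 48 hr. The authors' deposited table gave Tkt a WT mRNA fold of -0.76 at 24 hr and -1.17 at 48 hr, so its mutant mRNA fold was higher by 0.76 and 1.48, and by 0.63 and 1.27 after GC correction. WT footprints of Tkt stood at -0.59 and -0.52 in the authors' deposited table, close to the mutant folds of -0.60 and -0.61. The RD of Tkt was 0.15 and 0.64 in the WT and -0.56 and -0.82 in the mutant in the authors' deposited table, a difference of -0.71 and -1.45 (-0.66 and -1.35 after GC correction). Taldo1 had WT mRNA folds of 0.23 and -0.19 and WT RD folds of 0.40 and 0.92 by the authors' deposited table. Its RD difference was -0.62 and -1.40, and -0.58 and -1.29 after GC correction. For both genes the footprints were thus closer between genotypes than the mRNA.

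Genotype differences in ribosome density went both ways at 48 hr. Of the 17 glycolysis genes, 7 were at or below -0.5 and 1 was at or above 0.5. Of the 17 pyruvate dehydrogenase and TCA genes, 5 and 2 were. At 24 hr the RD difference reached -0.5 or lower in 4 of the 38 (13.3% of all genes), and at 48 hr in 15 (20.3%), while it reached 0.5 or higher in 2 and 3 (10.8% and 23.4%). After GC correction these counts were 2 and 9, and 1 and 1. The shares of all genes given above are without the correction, and corrected shares were not computed. Idh2, with RD folds of 0.33 and 0.68 in the WT and -0.30 and -0.53 in the mutant in the authors' deposited table, differed by -0.62 and -1.21 (-0.44 and -0.84 after GC correction). Pkm differed by -0.35 and -0.96 in RD, and by 0.01 and -0.38 after GC correction. Gpi1 differed by -0.29 and -0.92, and by -0.24 and -0.82 after GC correction. The 3 members at or above 0.5 at 48 hr were Dld (0.61), Dlat (0.53) and Pgam1 (0.52). After GC correction they stood at 0.06, 0.16 and 0.58. The glycolysis median RD difference was -0.21 and -0.30, and 0.07 and -0.09 after GC correction, so its sign at 24 hr turned with the correction. For the pentose phosphate genes it was -0.46 and -0.99, and -0.39 and -0.82 after correction, and for the pyruvate dehydrogenase and TCA genes 0.07 and -0.05, and -0.08 and -0.27 after correction.

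Aldoa, Tpi1 and Gapdh of the triose steps had high RD in the WT, but high WT values were not confined to these steps. In the WT, RD stood at 0.93 and 0.89 for Aldoa, 0.64 and 0.90 for Tpi1 and 0.74 and 0.58 for Gapdh in the authors' deposited table. There, WT RD at 48 hr was also 0.92 for Taldo1, 0.68 for Idh2, 0.67 for Eno2, 0.64 for Tkt and 0.54 for Pkm. Pgk1, the next step after Gapdh, had WT RD of 0.01 and 0.08. Over all genes, the rank correlation of WT RD with GC content was 0.52 and 0.59. The share of all genes with WT RD this high is not given here. The mutant RD was 0.20 and -0.02 for Aldoa and 0.22 and 0.28 for Tpi1 in the authors' deposited table, lower than the WT at both times. Gapdh, at 0.47 and 0.58 in the mutant in the authors' deposited table, matched the WT at 48 hr before GC correction. Pgam1 had the opposite order at both times, with RD of -0.53 and -0.61 in the WT and 0.31 and -0.09 in the mutant in the authors' deposited table. GC correction took the genotype gap of Aldoa (mutant less WT) from -0.72 and -0.91 to -0.46 and -0.40. For Tpi1 the gap went from -0.42 and -0.61 to -0.37 and -0.51. The Gapdh gap went from -0.27 and -0.01 to -0.08 and 0.36, so the match at 48 hr was lost. That of Pgam1 changed little, from 0.84 and 0.52 to 0.85 and 0.58.

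**Figure D4:**
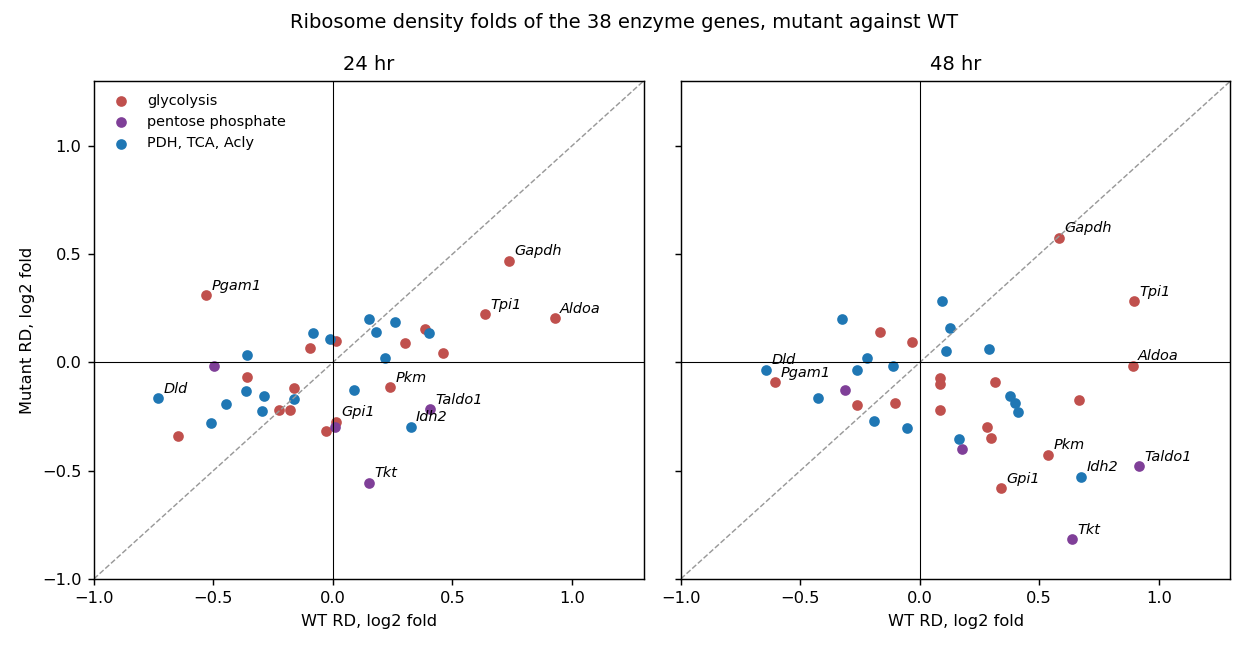
Ribosome density fold in the mutant (y axes, log2) against the WT (x axes, log2) for the 38 enzyme genes at 24 hr (left) and 48 hr (right), from the authors' deposited table; the dashed line marks equal folds. At 48 hr Tkt, Taldo1, Idh2, Gpi1 and Pkm lie right of 0 in the WT and below 0 in the mutant, and Gapdh lies on the line.

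A further deposited table gives values named IS, which it does not spell out, for 2332 transcripts of untreated and 24 hr mutant cells, 16 of them of these enzymes. Idh2 had the highest IS of these in untreated cells, 113.9, and 63.6 at 24 hr in the authors' deposited table, where the median of all transcripts was 2.42 and 1.73. Dld at 53.3 and 70.7, Cs at 39.7 and 29.8 and Dlat at 34.1 and 74.4 were also above the upper quartiles of 9.03 and 7.66 in the authors' deposited table. Of the 12 transcripts of the pyruvate dehydrogenase and TCA group, 6 were above the upper quartile when untreated. At the other end of that group, Fh1 was at 0.32 and 0, Idh1 at 0.21 and 0, Acly at 0.086 and 0.31 and Pdha1 at 0 and 0.17 in the authors' deposited table. The glycolysis transcripts were Pkm, below the median at 0.95 and 0.14, Hk1, below it at 0.95 and 0.56, and Aldoa, near it at 2.48 and then at 0.92, in the authors' deposited table. IS was lower at 24 hr for 11 of the 16 (68.8%), and for 63.0% of all transcripts.

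Other genes of the same pathways gave a mixed picture. As background for the counts in each list that follows, mutant mRNA folds of 0.5 or more were found for 15.5% of all genes at 24 hr and 19.7% at 48 hr, and folds of -0.5 or less for 16.7% and 17.6%. Of 20 further glycolysis and sugar-entry genes in the table, 2 were at or above 0.5 in mutant mRNA at 24 hr and 6 at or below -0.5, with 3 and 6 at 48 hr (medians -0.11 and 0.01). Aldoc, the brain aldolase and an astrocyte marker, stood at -2.16 and -2.50 in mRNA by the authors' deposited table, the lowest of 10 astrocyte markers, and Aldoa at 0.14 and 0.28. The authors' deposited table also had low folds for Gpd1l, a relative of glycerol phosphate dehydrogenase, with -1.24 and -1.25, Bpgm, the bisphosphoglycerate mutase, at -0.88 and -1.10, and the mitochondrial glycerol phosphate dehydrogenase Gpd2 at -0.79 and -0.77. Of 8 further pentose phosphate genes, 2 reached 0.5 and 1 reached -0.5 at 24 hr, and 3 and 1 did at 48 hr (medians 0.37 and 0.38). The authors' deposited table had Pgm2l1, which makes glucose bisphosphate, at 1.35 and 1.59, the ribose phosphate isomerase Rpia at 0.52 and 0.49, H6pd, the endoplasmic reticulum counterpart of G6pdx, at 0.40 and 0.57, and Pgls, the lactonase between G6pdx and Pgd, at 0.38 and 0.81. Prps1, which makes the activated ribose for nucleotides, was low at -0.65 and -0.91 in the authors' deposited table.

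Of 25 further genes around pyruvate dehydrogenase and the TCA cycle, 3 reached 0.5 and 5 reached -0.5 at 24 hr, and 5 and 6 did at 48 hr (medians -0.05 and -0.01). The lowest in the authors' deposited table was Acss1, the mitochondrial acetyl-CoA synthetase, at -2.05 and -1.85. The malic enzymes Me3, at -1.40 and -0.94, and Me2, at -0.97 and -1.01, were low in the authors' deposited table too. So were the pyruvate dehydrogenase kinase Pdk2, at -1.35 and -0.89, and the opposing phosphatase Pdp1, at -0.85 and -1.28, in the authors' deposited table.

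Among 21 transporters of glucose, lactate, pyruvate and mitochondrial metabolites, 6 reached 0.5 and 4 reached -0.5 at 24 hr, and 7 and 4 did at 48 hr (medians 0.03 and 0.16). Slc16a3, the monocarboxylate transporter that exports lactate, had mRNA folds of 2.01 and 1.20 and footprint folds of 3.66 and 2.38 by the authors' deposited table. Its RD was 1.47 and 1.04 in the mutant and 1.96 and 2.13 in the WT in the authors' deposited table. Slc2a6, a lysosomal member of the glucose transporter family, had mRNA folds of 5.78 and 5.71, and the mitochondrial dicarboxylate carrier Slc25a10 had 2.12 and 2.42, in the authors' deposited table. The sugar transporter genes Slc2a12, at -2.16 and -2.52, and Slc2a4, the insulin-responsive transporter, at -1.37 and -1.81, were low in the authors' deposited table.

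Of 15 glycogen genes, none was at or above 0.5 and 5 and 4 were at or below -0.5 (medians -0.27 and -0.12). The authors' deposited table put Ppp1r3c, which targets the phosphatase that activates glycogen synthase, at -1.50 and -1.46, Epm2a, the glycogen phosphatase laforin, at -0.88 and -1.14, the brain glycogen phosphorylase Pygb at -0.82 and -0.78, and the phosphorylase kinase subunit Phka2 at -0.55 and -0.54. Of 20 regulators, 5 reached 0.5 and 2 reached -0.5 at 24 hr, and 5 and 1 did at 48 hr (medians 0.27 and 0.23). High in the authors' deposited table were Myc, a transcription factor that drives glycolytic genes, at 1.81 and 1.96, and the hypoxia-inducible factor genes Hif1a, at 1.68 and 1.67, and Epas1, at 1.52 and 1.54. Prkaa2, a catalytic subunit of the energy sensor AMPK, stood at -0.77 and -0.91 in the authors' deposited table.

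Hypoxia response genes other than these enzymes did not move as a block. Of 18, 6 reached 0.5 and 2 reached -0.5 at 24 hr, and 3 and 4 did at 48 hr (medians -0.01 and -0.08). Ak4, a mitochondrial adenylate kinase, at 2.57 and 2.11, the collagen hydroxylase subunit P4ha2, at 1.99 and 2.04, Egln3, an oxygen-sensing hydroxylase, at 1.22 and 0.35, and the peptide hormone gene Adm, at 1.10 and 0.74, were high in the authors' deposited table. Car9, a carbonic anhydrase, at -0.85 and -2.11, and P4ha1, at -0.48 and -1.04, were low in the authors' deposited table.

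All 10 astrocyte markers looked for were in the table, which holds folds and no levels, so whether a marker is present at a low level could not be read. Their median mutant mRNA fold was -0.57 at 24 hr and -0.69 at 48 hr, with 5 at or below -0.5 and 2 at or above 0.5 at both times. The lowest was Aldoc, at -2.16 and -2.50, and the highest Slc1a2, at 1.99 and 1.90, in the authors' deposited table. Of markers of other cells, 3 of 9 for microglia and macrophages, 5 of 8 for the oligodendrocyte lineage, 4 of 8 for neurons, 2 of 5 for endothelium, 7 of 7 for fibroblasts and mural cells and 4 of 6 for ependyma and choroid plexus had a fold. By the authors' deposited table, their mutant mRNA folds at 24 hr ran from 0.82 (Adgre1) to 1.89 (Cd68) for microglia, from -2.81 (Acta2) to 4.60 (Dcn) for fibroblasts and mural cells, and from -2.59 (Map2) to 0.98 (Tubb3) for neurons. They ran from -1.17 (Olig1) to 1.73 (Pdgfra) for the oligodendrocyte lineage, from -3.29 (Kdr) to -0.21 (Cdh5) for endothelium and from -2.41 (Folr1) to -0.68 (Foxj1) for ependyma and choroid plexus in the authors' deposited table. At 48 hr the microglia and macrophage markers stood at 6.71 (Adgre1), 1.43 (Tmem119) and 1.18 (Cd68) in the mutant, and Adgre1 at 7.55 in the WT, in the authors' deposited table. The part of these markers in the enzyme folds was not tested.

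Some members share sequence with other genes, and their folds are less certain. Exons of Pfkm, Pfkp, Aldoa, Tpi1, Gapdh, G6pdx, Pdha1, Idh3b and Mdh1 overlap a protein-coding gene on the opposite strand, and the sources used here do not say whether counting used the strand. Exons of Tkt, Pkm and Pfkm overlap a gene on the same strand that is not annotated as protein-coding (Mir3076, Gm49759 and Gm26513). Related copies named after the gene in the annotation number 6 for Tpi1, 3 for Pgk1 and 2 each for Aldoa, Gapdh, Pgam1 and Ldha, and reads could be split among them. Copies under other names were not counted, so these numbers are lower bounds and other members may have copies too.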

How the data were processed

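RNA-seq and Ribo-seq were made from 18 libraries of Eif2b5 mutant primary astrocytes in 6 groups of 3, per the labels. TopHat2, featureCounts and mm10 appear in the submitters' processing notes, with no version. The values analysed are the authors' deposited log2 folds (treated over untreated, 12 columns, 12205 genes), per the file headers; the program behind them and the computation of RD are not given in the sources used here. Another table, also deposited, gives the authors' IS score and a density signal of elongation reads, per the file headers, of which 2 WT columns stayed unused. In the deposited log2 folds, mutant RPF at 48 hr has 2 decimals only. In the mutant, subtracting the mRNA fold from the RPF fold gave values whose Pearson correlation with RD, across the 38 members, was 0.997 at 24 hr and 0.998 at 48 hr.

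The members and all gene lists were chosen with earlier results of these data known. Groups were described by medians, by counts at or beyond a log2 fold of 0.5 or 1, and by the 95% order-statistic interval over the members (the range for the 4 pentose phosphate genes), which describes the spread of members and not error between cultures. No test was possible without values per library. All 38 members are described, and from each of 7 further lists the 4 genes with the largest absolute mutant mRNA fold at each time are named, except for an item not reported here. Coordinates, lengths and GC content came from GENCODE M21 on GRCm38 (the assembly of mm10), using the coding transcript with the longest coding sequence, which gave GC content for 11992 genes; the GC correction subtracts the median of each of 20 bins. Promoters came from RefSeq (GRCm38.p6), taking the outermost listed start. Procedures were tested on simulated data. Software was matplotlib 3.10.9, scipy 1.17.1, numpy 2.4.6 and pandas 2.3.3 under Python 3.11.15.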

Additional observations from a re-analysis of the deposited data

How the results depend on the processing

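No paired analysis was possible because the table holds a pooled fold per gene and comparison; leaving out or blocking on a batch was not run for the same reason, and the depth is unknown. Centring on the median of all genes and taking the mean over members left every group median within its interval over the members, and centring kept all counts of members past 0.5 within 1.5 times. Correction for GC content moved the glycolysis median mRNA fold at 48 hr to 0.20 (0.41 as deposited) and the RD difference of the pyruvate dehydrogenase and TCA genes at 24 hr to -0.081 (0.07). With a threshold of 1 in place of 0.5, the members at or above it numbered 3 and 4 in mRNA and 2 and 2 in footprints at 24 hr and 48 hr, and 0 in RD at 48 hr; those at or below its negative numbered 2 in each of these mRNA and footprint columns and 0 in RD at both times. With footprint fold minus mRNA fold in place of RD, 5 members were at or below -0.5 at 48 hr (3 as deposited). Correction of the differences of single genes, and of their counts, was chosen after seeing the data. It moved the members at or above 0.5 from 5 and 14 to 1 and 5 in mRNA and from 2 and 3 to 1 and 1 in RD, and those at or below -0.5 in RD from 4 and 15 to 2 and 9. It turned the Eno1 differences at 48 hr from 0.66 to -0.031 in mRNA and from -0.58 to 0.0072 in RD. The cause of these moves was not tested, and the shares of all genes past 0.5 after correction of the differences were not computed.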
